A study of Mus musculus with 2 samples.

Results

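The microRNA (miRNA) genes described here are the 6 members of the miR-10, miR-196 and miR-615 families whose hairpins lie inside the 4 mouse Hox clusters. They are Mir10a, Mir10b, Mir196a-1, Mir196a-2, Mir196b and Mir615, and they were chosen by symbol from the 2202 miRNA genes listed in the deposited count files. The tissue was the left cerebral cortex, taken at an age of 10 days from males of the cross B6CASTF1/J, which carry B6 and CAST genomes. The labels give no treatment and no other genotype, so there is 1 group, with 2 biological replicates described as different males but listed under 1 donor entry, and no condition could be compared. Reads were counted per gene, that is per hairpin with both of its arms summed, and a level in CPM is a gene's sense reads per 1000000 sense reads assigned to miRNA genes in that library.

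Hox genes encode transcription factors that give cells along the head-to-tail axis their positional identity, and in the nervous system their domain is the hindbrain and spinal cord, not the cortex. The miR-10 and miR-196 hairpins lie at conserved places between Hox genes and are known to be expressed in domains like those of their neighbours. Mature miRNAs pair with target mRNAs mainly through the seed (bases 2 to 8 from the 5′ end), and mRNAs of Hox genes are among the known targets of miR-196.

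Of the 6 genes, 2 were detected in the cortex, against 20.1% of all genes listed. Both were of the miR-10 family and lay below the median of the detected genes, 89.4 CPM. Mir10b averaged 34.3 ± 8.88 CPM and Mir10a 9.70 ± 1.60 CPM (SD, n = 2). Mir196b had 3 and 4 reads and Mir615 had 2 and 0 reads in replicates 1 and 2. Mir196a-1 and Mir196a-2 had no read in either library, but both encode the same 5p strand, whose reads fit both genes equally. Together the 6 genes held 0.00461% ± 0.000758 of assigned reads (SD, n = 2). Only 3 of them could be tested for a difference between the libraries, and 0 of these passed, against 12.0% of all tested genes.

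The mature sequences below, from RefSeq (GRCm38.p6), are shown because they set which family members can be told apart by their reads. The seed is in capitals.
miR-10a-5p: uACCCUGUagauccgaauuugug
miR-10b-5p: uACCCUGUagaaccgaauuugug
miR-196a-5p, from both Mir196a-1 and Mir196a-2: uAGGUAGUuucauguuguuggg
miR-196b-5p: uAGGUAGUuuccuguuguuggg
miR-615-5p: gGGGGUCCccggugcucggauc
miR-615-3p: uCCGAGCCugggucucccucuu
The 5p strands of miR-10a and miR-10b differ at 1 of 23 bases, U12A, and those of miR-196a and miR-196b at 1 of 22 bases, A12C, with positions counted from 1 at the 5′ end. Both differences lie outside the seed. Each pair therefore shares its seed, and no other mature miRNA in the RefSeq table has the seed of these 5p strands or of either strand of miR-615.

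The 6 hairpins lie on 4 chromosomes, with positions in mm10 from GENCODE M21. Mir10b (ENSMUSG00000065500.3) lies on chromosome 2 at 74726070 to 74726137, plus strand, in introns of Hoxd3 and Hoxd4 transcripts. Mir10a (ENSMUSG00000065519.1) lies on chromosome 11 at 96317165 to 96317274, plus strand, overlaps no other annotated gene and ends 993 bases before Hoxb4. The 2 genes thus flank or lie within members of Hox paralog group 4.

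Mir196b (ENSMUSG00000065443.1) lies on chromosome 6 at 52230081 to 52230165, minus strand, within Hoxa9. It falls in an exon of 2 noncoding Hoxa9 transcripts and in an intron of 1 more, and in no coding sequence. Mir196a-1 (ENSMUSG00000065546.1) lies on chromosome 11 at 96265164 to 96265265, plus strand, 6192 bases before Hoxb9 and in no other gene. Mir196a-2 (ENSMUSG00000065488.2) lies on chromosome 15 at 102973350 to 102973434, plus strand, in an intron of a long Hoxc5 transcript, 3005 bases before Hoxc9. All 3 miR-196 genes are therefore next to or inside a gene of Hox paralog group 9. Mir615 (ENSMUSG00000076010.1) lies on chromosome 15 at 103014910 to 103015001, plus strand, in an intron of Hoxc5. Within the clusters and 10 kb on either side, the count files list 1 more miRNA gene, Gm44463 in the Hoxd cluster, which had 0 reads in both libraries.

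**Figure D1:**
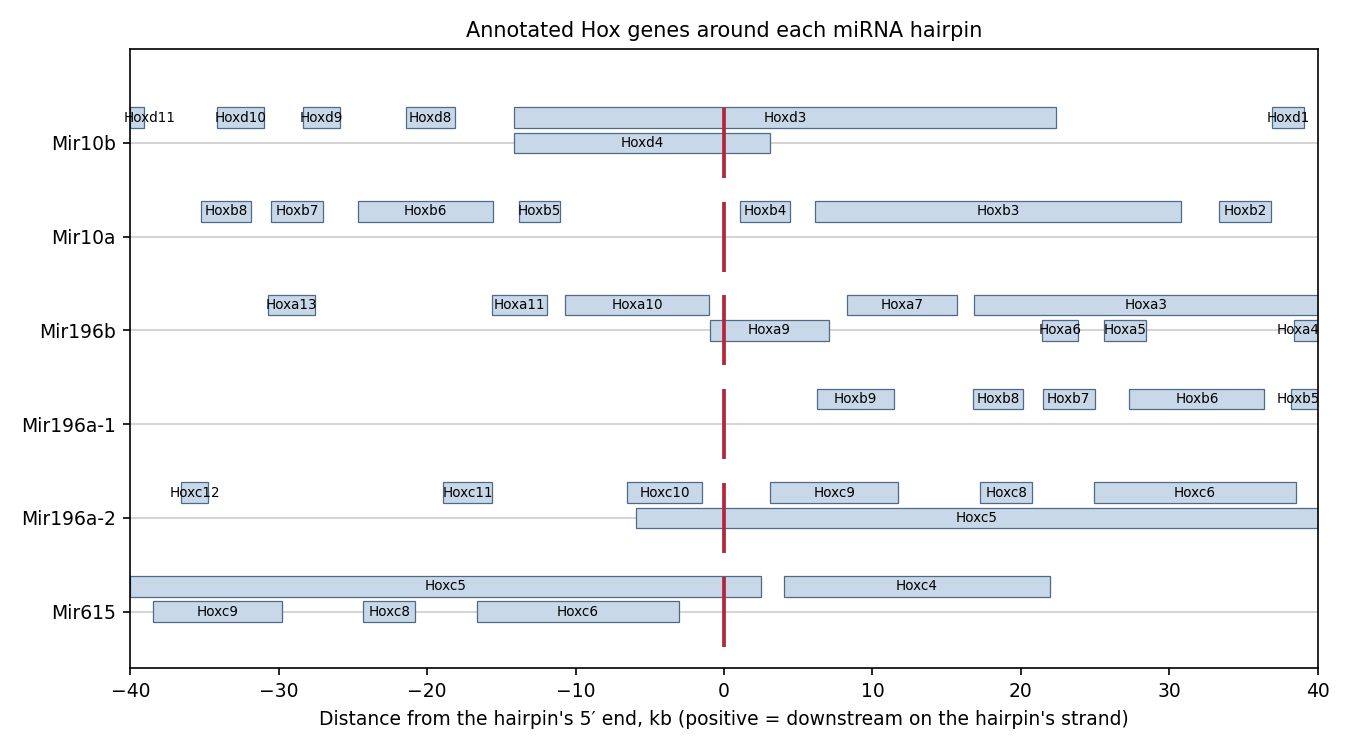
Annotated Hox genes (boxes) within 40 kb of each hairpin (red mark at 0), drawn to scale along the hairpin's own strand, with distance from the hairpin's 5′ end in kb on the x axis. The gene nearest downstream of Mir10a is Hoxb4, which starts at 1.10 kb on this axis, 993 bases after the hairpin ends. Mir196b sits inside Hoxa9.

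Replicate 1 held 2677910 assigned sense reads and replicate 2 held 1750076, so the 3 reads that a count of 0 allows, a one-sided limit, correspond to 1.12 and 1.71 CPM. The two-sided exact Poisson interval used for the other counts reaches higher for 0 reads, to 1.38 and 2.11 CPM, and in replicate 2 that is above the 2 CPM needed for detection. All intervals are at 95% and describe counting error alone. PCR copies of a molecule are counted separately, so the intervals can be too narrow even for that. The neuron-associated miRNA genes checked against the tissue label held 4.49% and 3.49% of reads, with 9 of 12 detected. Not detected were Mir124a-1 (10 and 2 reads in replicates 1 and 2), Mir124a-2 (0 and 4 reads) and Mir124a-3 (7 and 2 reads). The Mir124a genes are copies at several loci, and reads that mapped to several places were set apart from the genes. These counts therefore give no limit for the level of miR-124, and the share of the list leaves such reads out. Across the table, 442 of 2202 genes (20.1%) were detected, meaning at 2 CPM or more in both libraries, and 744 had a read in either.

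Mir10b was the most abundant of the 6 genes. It had 75 reads in replicate 1, or 28.0 CPM (exact Poisson interval 22.0 to 35.1). In replicate 2 it had 71 reads, or 40.6 CPM (31.7 to 51.2). Its level was higher in replicate 2, and the intervals of the libraries overlap. It ranked 268 of 2202 genes by mean CPM, above 64.0% of the 744 genes with a read and below the median of the detected genes, 89.4 CPM. The hairpin of Mir10b is printed here with the mature 5p and 3p strands in capitals, since its 75 and 71 reads are the sum over both.
Mir10b hairpin: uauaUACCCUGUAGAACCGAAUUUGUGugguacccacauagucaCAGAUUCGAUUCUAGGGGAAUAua

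Mir10a was detected at a lower level. It had 29 reads in replicate 1, or 10.8 CPM (7.25 to 15.6), and 15 reads in replicate 2, or 8.57 CPM (4.80 to 14.1). Here replicate 1 was the higher library, again with overlapping intervals. Mir10a ranked 337 by mean CPM, above 54.7% of the genes with a read. Its longest stretch in common with another of the 1005 RefSeq hairpins was 15 bases, with Mir10b, shown in capitals. The stretch ends before base 12 of the 5p strand, the 1 base at which whole 5p reads of the 2 genes differ.
Mir10a hairpin: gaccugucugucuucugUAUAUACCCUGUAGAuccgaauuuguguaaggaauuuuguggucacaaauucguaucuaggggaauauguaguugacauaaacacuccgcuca
The number of mismatches allowed in mapping is not known here, so how reads were divided between the 2 genes was not tested.

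The balance between the 2 miR-10 genes favoured Mir10b in both libraries. Mir10b made up 72.1% of the 104 reads of both genes in replicate 1 (exact Clopper-Pearson interval 62.5% to 80.5%) and 82.6% of 86 reads in replicate 2 (72.9% to 89.9%). The mean was 77.3% ± 7.38 (SD, n = 2). Each interval lies above an equal division. The shares in the 2 libraries differed by less than counting error resolves (Fisher's exact test on reads, two-sided, p = 0.120). A ratio of 2 genes within a library does not depend on the library total, but how well each strand is captured in library preparation was not tested.

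The miR-196 genes were at the limit of detection. Mir196b had 3 reads in replicate 1, or 1.12 CPM (0.231 to 3.27), and 4 reads in replicate 2, or 2.29 CPM (0.623 to 5.85). It reached 2 CPM in replicate 2 only and ranked 510 by mean CPM. Its 5p strand is 1 base away from miR-196a-5p, so its 3 and 4 reads are uncertain in the same way as the division between the miR-10 genes.

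Mir196a-1 and Mir196a-2 had 0 reads in both libraries, with exact Poisson intervals that reach 1.38 and 2.11 CPM of reads assigned to each gene. The hairpins are printed with the stretch they share in capitals.
Mir196a-1: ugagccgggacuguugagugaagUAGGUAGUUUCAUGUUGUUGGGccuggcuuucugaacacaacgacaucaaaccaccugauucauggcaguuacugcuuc
Mir196a-2: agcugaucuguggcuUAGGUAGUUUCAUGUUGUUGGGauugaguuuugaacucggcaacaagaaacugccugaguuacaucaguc
The shared stretch of 22 bases is the whole of miR-196a-5p. A read of exactly that strand fits both genes, and the files set reads that mapped to several places apart from the genes. The 0 therefore gives no limit for miR-196a-5p. Reads that mapped to several places made up 38.2% of replicate 1 and 28.3% of replicate 2, and how many of them were miR-196a-5p was not analysed here.

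The situation of the Mir196a genes, with one mature strand identical at another locus and the other strand different, holds for 57 of the 1018 genes with a mature sequence in the RefSeq table. Of the 57, 40 (70.2%) were detected and 12 (21.1%) had no read in either library, the 2 Mir196a genes among these 12. Of 924 genes with no identical strand elsewhere, 354 (38.3%) were detected. Of 37 genes with every listed strand identical elsewhere, 7 (18.9%) were detected and 28 (75.7%) had no read in either library, against 344 (37.2%) with no read among the 924. The part of the shared strand in the counts of the Mir196a genes was not tested. The RefSeq table covers 401 of the 442 detected genes.

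Mir615 had 2 reads in replicate 1, or 0.747 CPM (0.0904 to 2.70), and 0 in replicate 2, where the interval reaches 2.11 CPM. Both counts are under 3 reads. Neither of its mature strands has a seed shared with another listed miRNA.

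**Figure D2:**
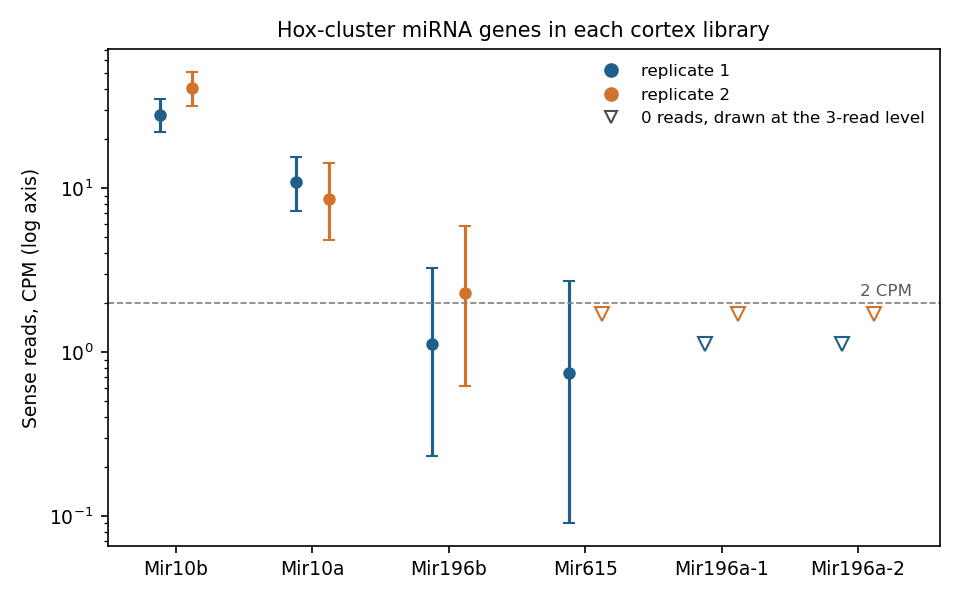
Sense reads of the 6 genes in CPM on a log axis, 1 point per library with its exact 95% Poisson interval; open triangles stand at the level of 3 reads where a library had 0. Mir10b lies at 28.0 and 40.6 CPM, Mir10a at 10.8 and 8.57 CPM, and the other 4 genes at or near the 3-read level.

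In order of mean CPM the genes were Mir10b, Mir10a, Mir196b and Mir615, followed by the 2 Mir196a genes at 0. Mir10b and Mir10a were apart, with both libraries of Mir10b above both of Mir10a, Poisson intervals that did not overlap in either library, and a ratio of means of 3.53. Mir10a and Mir196b were 5.70-fold apart in mean, and their intervals did not overlap in replicate 1 but did in replicate 2. Mir196b, Mir615 and the Mir196a genes could not be placed in order at this depth. With 2 libraries a gene, a permutation test between genes cannot give a two-sided p below 0.333, so none is given.

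The genes closest to the detected members in level were found by distance in log2(CPM + 1) over the 2 libraries. For Mir10b they were Mir670 at 29.9 and 40.6 CPM (distance 0.09) and Mir29b-1 at 28.0 and 44.6 CPM (0.13). For Mir10a they were Mir218-1 at 10.8 and 9.71 CPM (0.16) and Mir205 at 10.1 and 7.43 CPM (0.21). With 2 libraries, likeness here means little more than a like level.

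The libraries were compared gene by gene with Fisher's exact test (two-sided) on reads, with Benjamini-Hochberg adjustment over the 542 genes at 2 CPM or more in either library. It sets 1 library against the other and says nothing of a condition. A gene was called where the adjusted p was under 0.05 and the libraries differed by at least 1 on the log2 scale. Of the 6 genes, 3 could be tested and 0 were called, against 12.0% of all tested genes. At an unadjusted p under 0.05, 1 of the 3 passed, against 47.0% of tested genes. The median log2 ratio of the 3 tested members was 0.54 and that of all tested genes -0.09.

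Mir10b was 1.45-fold higher in replicate 2, a log2 ratio of 0.54 (exact binomial interval 0.05 to 1.02), with an adjusted p of 0.0635 by Fisher's exact test. It was the 1 gene with an unadjusted p under 0.05 (0.0275). Mir10a had a log2 ratio of -0.31 (-1.34 to 0.61) and an adjusted p of 0.669 by Fisher's exact test. Mir196b had a log2 ratio of 0.98 (-1.53 to 3.80) and an adjusted p of 0.583 by Fisher's exact test, an interval too wide to tell a rise from a fall. Each ratio is replicate 2 over replicate 1 with 0.5 reads added to both counts.

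**Figure D3:**
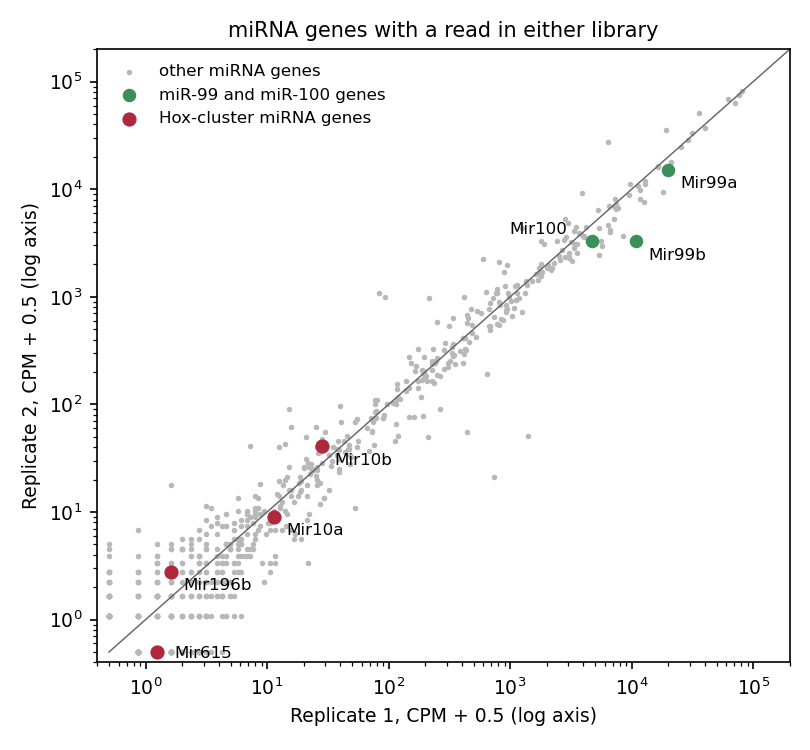
CPM + 0.5 of every miRNA gene with a read in either library, replicate 1 on the x axis and replicate 2 on the y axis, both log scales, with the line of equal level. Mir10b and Mir10a lie near the line, at 28.0 and 40.6 and at 10.8 and 8.57 CPM, and the related Mir99a, Mir99b and Mir100 lie far above them in level.

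Marker lists of other cells in the tissue differed between the libraries in different ways. Over all tested genes, 12.0% were called. The choroid plexus and ependyma list summed to 1333 CPM in replicate 1 and 3740 CPM in replicate 2, with 5 of its 6 tested genes called, all higher in replicate 2. The erythroid list summed to 814 and 56.6 CPM, with 2 of 3 genes called lower in replicate 2. The endothelial and mural list summed to 13639 and 15214 CPM, with none of its 3 tested genes called. The microglia and leukocyte list summed to 8845 and 6955 CPM, with none of 6 called. Most of these latter sums was Mir342 alone, at 7129 and 5283 CPM. Mir126b, which lies antisense to Mir126a, was at 0, and every other gene on these lists had a read in at least 1 library. The choroid plexus and ependyma list and the endothelial and mural list had their higher sums in replicate 2, as Mir10b did, and their part in its level was not tested. In whole tissue, fewer cells that make a miRNA and less of it per cell cannot be told apart.

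The relatives of miR-10 outside the Hox clusters were far more abundant. The miR-99 and miR-100 strands belong to the same ancient family as miR-10 and are shown with their seeds in capitals.
miR-99a-5p: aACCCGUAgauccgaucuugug
miR-99b-5p: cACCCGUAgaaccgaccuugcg
miR-100-5p: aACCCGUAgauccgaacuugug
Their seed differs from that of miR-10. From base 7 of the miR-10 strands there is a shared run of 10 bases, GUAGAUCCGA, between miR-10a and miR-99a, of 11 bases between miR-10a and miR-100, and of 10 bases, GUAGAACCGA, between miR-10b and miR-99b. None of these runs is as long as a mature strand, but the number of mismatches allowed in mapping is not known here. Whether reads of these relatives were counted for the miR-10 genes was not tested.

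Mir99a averaged 17477 ± 3241 CPM, Mir99b 7042 ± 5316 CPM and Mir100 4036 ± 992 CPM (SD, n = 2). Mir99a stood 706-fold above Mir10b in replicate 1 and 374-fold in replicate 2. Mir100 stood 169-fold and 82.2-fold above Mir10b, and 438-fold and 389-fold above Mir10a. These are ratios of CPM per hairpin, not divided by length, since the mature strands are all of 21 to 23 bases. The 3 relatives together made up 3.53% of replicate 1 and 2.18% of replicate 2, against 0.00388% and 0.00491% for the 2 miR-10 genes. Of the 3, Mir99b was called lower in replicate 2, and none was called higher.

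The miR-196 seed has a counterpart in let-7. All 7 bases of it, AGGUAGU, occur in let-7i-5p at positions 3 to 9, 1 base further along than in miR-196, so the seeds are not the same.
let-7i-5p: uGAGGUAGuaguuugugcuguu
The 12 let-7 genes held 28.2% and 28.9% of assigned reads in replicates 1 and 2, with 12 of 12 detected, against 0.000112% and 0.000229% for the miR-196 genes as far as these could be counted.

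Set beside miRNAs typical of other tissues, the 6 genes held less of the reads than 3 lists and more than 2. Their share was 0.00407% in replicate 1, with a Wilson interval from 0.00337% to 0.00491%. It was 0.00514% in replicate 2, with an interval from 0.00418% to 0.00632%. The striated muscle list held 0.00579% (0.00495% to 0.00677%) and 0.00691% (0.00579% to 0.00826%) with 4 of 9 genes detected. Its interval overlaps that of the 6 genes in replicate 2 and is barely apart from it in replicate 1. The epithelial miR-200 list held 0.00859% and 0.00823% with 5 of 5 detected. The sensory miR-183 list was lower, at 0.00258% and 0.00211% with 2 of 3 detected, and the pluripotency list lower still, at 0.000710% and 0.000514% with 1 of 10 detected. The liver, pancreas and gut list stood 5.29-fold and 5.52-fold above the 6 genes, led by Mir375. The lists differ in how many genes they hold and in how many of those have a copy elsewhere, so their order describes these counts and not the tissue's content of each miRNA. The median of mean CPM was 1.04 over the 6 genes, 2 of which had no read. It was 6.16 over the 744 genes with a read, which leaves out the 1458 of 2202 genes with none. The 2 medians are therefore not of like sets.

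**Figure D4:**
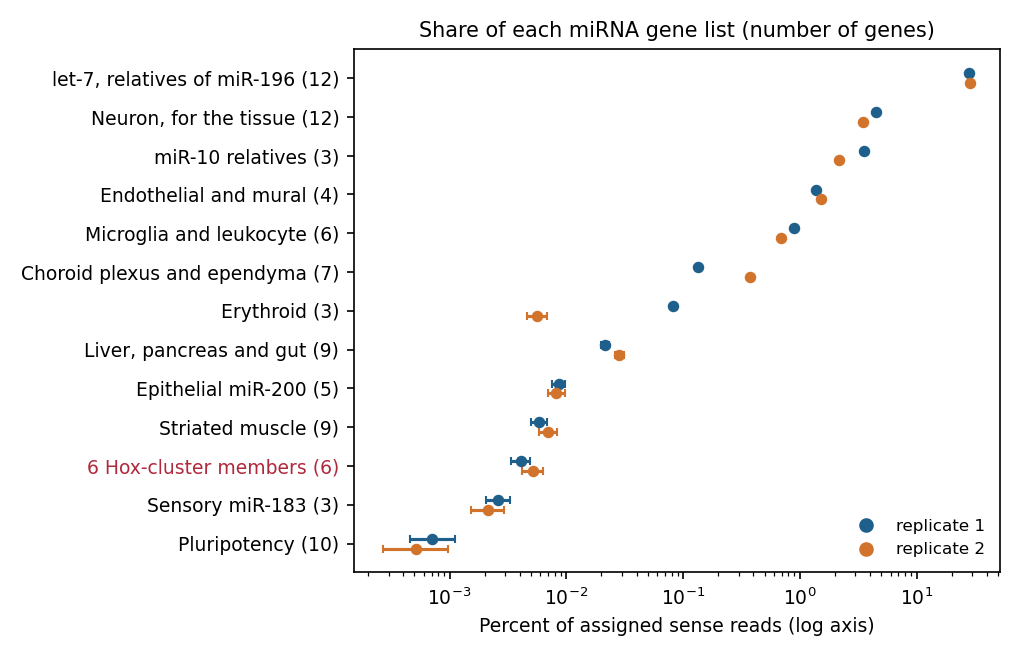
Percent of assigned sense reads held by each list of miRNA genes, on a log axis, 1 point per library with its 95% Wilson interval and the number of genes in brackets. The 6 Hox-cluster genes, at 0.00407% and 0.00514%, lie between the sensory miR-183 list and the striated muscle list.

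Almost all reads of the 6 genes were on their own strand. The antisense column held 1 read over the 6 genes and both libraries, for Mir10a in replicate 1. Over all genes it held 181056 and 109005 reads in replicates 1 and 2, against 2677910 and 1750076 sense reads. The unstranded counts were 30 and 15 for Mir10a, and 75 and 71 for Mir10b, within 1 read of the sense counts.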

How the data were processed

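MicroRNA sequencing libraries from 2 samples in 1 group were used, grouped and numbered as labelled. For each library the authors deposited raw counts on mm10 genes of GENCODE M21, per the notes deposited with the files, in 3 columns (unstranded, sense and antisense). The sources used here do not give the aligner, counter, trimming or mismatch settings. The sense counts were divided by their sum over the 2202 genes. The 4 rows that name no gene were left out: unmapped reads were 25.5% and 42.4% of all reads in replicates 1 and 2, multimapping reads 38.2% and 28.3%, and reads outside listed genes 6.93% and 5.74%.

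Every gene listed in the counts had a symbol in M21. RefSeq sequences (GRCm38.p6) matched 6 of 6 members, with hairpins for 5 at the same coordinates. The members, lists, tests and alternatives were chosen with earlier results of these data known. Named were all members, the 2 genes nearest each detected member in level, sequence relatives, and leading genes of the lists. Of 11 pluripotency genes written, 10 were matched, and Mir292a was not. No edgeR contrast exists with 1 group, so libraries were compared across all genes by Fisher's exact test. Its p-values cover counting error only, not the spread between biological replicates. The script was run on simulated counts that held counting error alone, which says nothing about that spread. TMM totals came from edgeR 4.0.16 and size factors from DESeq2 1.42.0 in R 4.3.3. Python 3.11.15 with scipy 1.17.1 and pandas 2.3.3 did the rest.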

Additional observations from a re-analysis of the deposited data

How the results depend on the processing

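Of the 6 genes, 2 were detected under the main setting, 1 with a minimum of 10 CPM (Mir10b), and 3 with at least 1 read in both libraries or without replicate 1 (Mir196b added). With multimapping reads in the denominator, the mean share of the 6 genes was 0.00205% in place of 0.00461%, since the total is larger. Without replicate 1 or replicate 2 it was 0.00514% or 0.00407%. The count of members past the library test was 0 under all 6 alternatives run, in which 2 to 4 members could be tested. These included no minimum on the ratio, where 229 of 542 tested genes were called in place of 65. The log2 ratio of Mir10b was 0.53 to 0.60 over 4 alternatives, with adjusted p from 0.0328 to 0.0671 by Fisher's exact test. The adjusted p was under 0.05 with TMM totals (0.0413) and DESeq2 size factors (0.0328), and the ratio stayed under the minimum in all 4. Mir10a stayed below 0 in the same 4, and Mir196b had ratios of 0.94 to 1.04 with adjusted p of 0.579 or more. Without replicate 1 or replicate 2, the share of Mir10b among miR-10 reads was 82.6% or 72.1%, and the mean of Mir10b 40.6 or 28.0 CPM. No paired analysis was possible because there is 1 group. Counts of 0 to 4 reads allow no ranking among the miR-196 genes and Mir615.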
